A study of Mus musculus with 11 samples.

Results

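Xap5 KO and Sox5 KO cells, 2 knockout lines of one mouse fibroblast line, were compared directly with each other. The members of the comparison were 6 of the 11 libraries of the series, 3 labelled Xap5 KO and 3 labelled Sox5 KO. All came from NIH/3T3, a long-established fibroblast line from mouse embryos, and were kept for 24 h in serum-free medium before total RNA was taken, a condition in which these cells leave the cell cycle and form a primary cilium. The series also holds WT libraries (n = 2) and Nono KO libraries (n = 3) of the same line and treatment, whose levels are given beside some results as a description only. The labels name no separate clones and do not say whether replicates were separate cultures, so each knockout was read as 1 line. The p-values therefore measure only the spread between these libraries, and what the loss of a gene did cannot be told apart from how 2 derived lines differ for other reasons.

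Xap5 appears in the count table under its mouse symbol, Fam50a. Its product is a conserved nuclear protein found with the spliceosome, the machine that removes introns from RNA. SOX5 is an HMG-box transcription factor of the SOXD subgroup, which binds the minor groove of DNA, has no activation domain of its own and is best known for its work with SOX6 and SOX9 in cartilage. NONO, the product of the third gene targeted in the series, is an RNA-binding protein of nuclear bodies called paraspeckles. The series design text places the 3 proteins in a single pathway of cilium formation, so the direct comparison of the Xap5 and Sox5 lines asks in which genes the loss of one member leaves cells unlike those that lost the other.

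Of 21684 genes in the table, 13332 had enough counts to be tested. At an adjusted p under 0.05, 8209 genes were called, 61.6% of those tested: 4151 (31.1%) were higher in Xap5 KO and 4058 (30.4%) were lower. Most of these differences were modest, because the median fold of a called gene was 1.51 and 48.9% of them differed by less than 1.5-fold. A difference of at least 2-fold was reached by 1995 called genes (15% of those tested), of which 1054 (7.91%) had more reads and 941 (7.06%) fewer in Xap5 KO. At least 4-fold apart were 391 higher and 321 lower genes. In 8939 genes (67%) the 3 libraries of one line did not overlap with the 3 of the other. The median difference over all tested genes was 0.02. Differences are given throughout as log2 of Xap5 KO over Sox5 KO with a standard error (±, SE). This SE is the absolute log2 difference divided by the square root of the test's F statistic, and was not estimated by the fit. Levels are given as CPM, counts scaled to a common library size, per library, in the order of replicates 1 to 3. CPM does not correct for gene length, so levels of different genes are not compared. Counts of list members below are to be read beside the 31.1% higher and 30.4% lower of all tested genes.

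The libraries held 37153144 to 39905996 counts in Xap5 KO and 30205878 to 32788225 in Sox5 KO. Genes of the mitochondrial genome took 8.94% ± 1.24 of the counts in Xap5 KO (SD, n = 3), 6.61% ± 0.478 in Sox5 KO and 6.24% ± 0.0539 in WT (n = 2). All 12 fibroblast markers were measured in both lines, with summed levels of 19743 to 21029 CPM in Xap5 KO and 22481 to 22790.0 CPM in Sox5 KO. Markers of skeletal muscle, epithelium and the germ line stayed under 1 CPM in sum in every one of the 6 libraries. The 7 endothelial markers summed to 33.5 to 35.7 CPM in Xap5 KO and 7.92 to 10.8 CPM in Sox5 KO, and the 8 neural markers to 10.6 to 11.2 CPM and 0.309 to 0.508 CPM. These sums rest on few genes. Of the endothelial markers 3 were tested and 1 was called, higher in Xap5 KO, and 2 had at most 3 counts in all 6 libraries. Of the neural markers 6 were tested and 3 were called, all higher, and 3 had at most 3 counts in all 6 libraries. In these bulk libraries more cells of a kind and more RNA per cell cannot be told apart. The 4 tested genes of the chromosome Y list summed to 196 and 201 CPM in the WT libraries, while no Xap5 KO library had any and a single Sox5 KO library had 0.0678 CPM.

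A difference related to transcript length ran through the comparison, and counts of list members corrected for it are given beside the lists below. Genes whose longest annotated transcript was under 1000 bases had a median log2 difference of -0.58 (559 genes), and those of 8000 bases or more had one of 0.58 (755 genes). Among the short ones 5.19% were higher and 53.3% lower in Xap5 KO, and among the long ones 67.8% were higher and 9.67% lower. All 3 Sox5 KO libraries had higher levels of short transcripts than the other 8, and WT and Nono KO lay on the side of Xap5 KO. The called genes and the gene lists were therefore also computed with an offset, an alternative chosen after the data were seen. It removes the trend with transcript length and GC content from every library. Groups within a list, chromosome medians, on and off genes and motif shares were not computed with it. With this offset 3845 genes were higher and 3948 lower in Xap5 KO, and 6437 of the 8209 calls (78.4%) kept their sign and their call. The notes used here name no strand setting for the counting, and 50 of the genes named in the text share exon sequence with another annotated gene, so their counts are less certain: Ace, Acsl3, Adamts9, Aldoa, Bax, Ccne2, Cdk4, Cdk6, Cep290, Col15a1, Eef1a1, Fn1, Fst, Fstl3, Ftl1, Gbp2, Hmgcs1, Hoxa3, Id4, Igf2, Irs1, Itga1, Keap1, Lox, Ndufa13, Nid2, Nin, Notch1, Notch2, Orc6, Pdgfc, Pdgfra, Pkm, Prelp, Ptbp3, Rbl2, Scd2, Sfrp2, Shc2, Shox2, Sox4, Sox5, Tbx3, Thbs1, Top2a, Tpm4, Tuba1a, mt-Co1, mt-Nd4l and mt-Nd5. What the length trend came from, and its part in the results, was not tested.

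**Figure D1:**
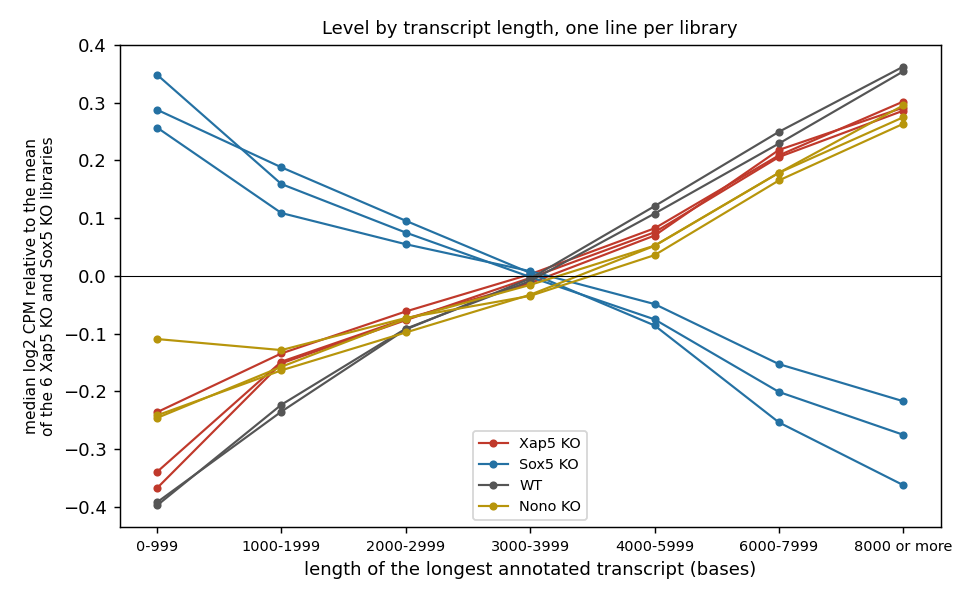
Median log2 CPM of tested genes relative to the mean of the 6 Xap5 KO and Sox5 KO libraries (y axis) in bins of longest transcript length (x axis, bases), with 1 line per library. In the shortest bin the Sox5 KO libraries lie at 0.26 to 0.35 and the Xap5 KO libraries at -0.37 to -0.24, and the order is turned round in the longest bin.

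The targeted genes were read first. Fam50a was at 7.49, 7.91 and 7.86 CPM in Xap5 KO against 107, 121 and 99.6 CPM in Sox5 KO (log2 difference -3.81 ± 0.08), with an adjusted p of 3.39e-18 in edgeR's quasi-likelihood test, so the lines did not overlap and the level matched the Xap5 KO label. WT held 64.8 and 62.9 CPM, between the lines. Sox5 did not separate the lines: it was at 14.2, 15.02 and 11.9 CPM in Xap5 KO against 12.6, 13.9 and 13.9 CPM in Sox5 KO, a difference of 0.03 ± 0.12 that was not called (adjusted p = 0.852, same test). Both lines were below the 49.7 and 45.9 CPM of WT, and the Nono KO libraries, not targeted at Sox5, were lowest at 7.01, 7.57 and 8.75 CPM. With the length and GC offset Sox5 was lower in Xap5 KO by a called difference of -0.39, and its exons overlap a gene on the opposite strand, so its counts are uncertain. A deletion or frameshift that leaves the transcript standing would not show in these values. Nono, intact in both lines by label, was at 448, 447 and 415 CPM in Xap5 KO against 409, 462 and 444 CPM in Sox5 KO and was not called (-0.01 ± 0.07).

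**Figure D2:**
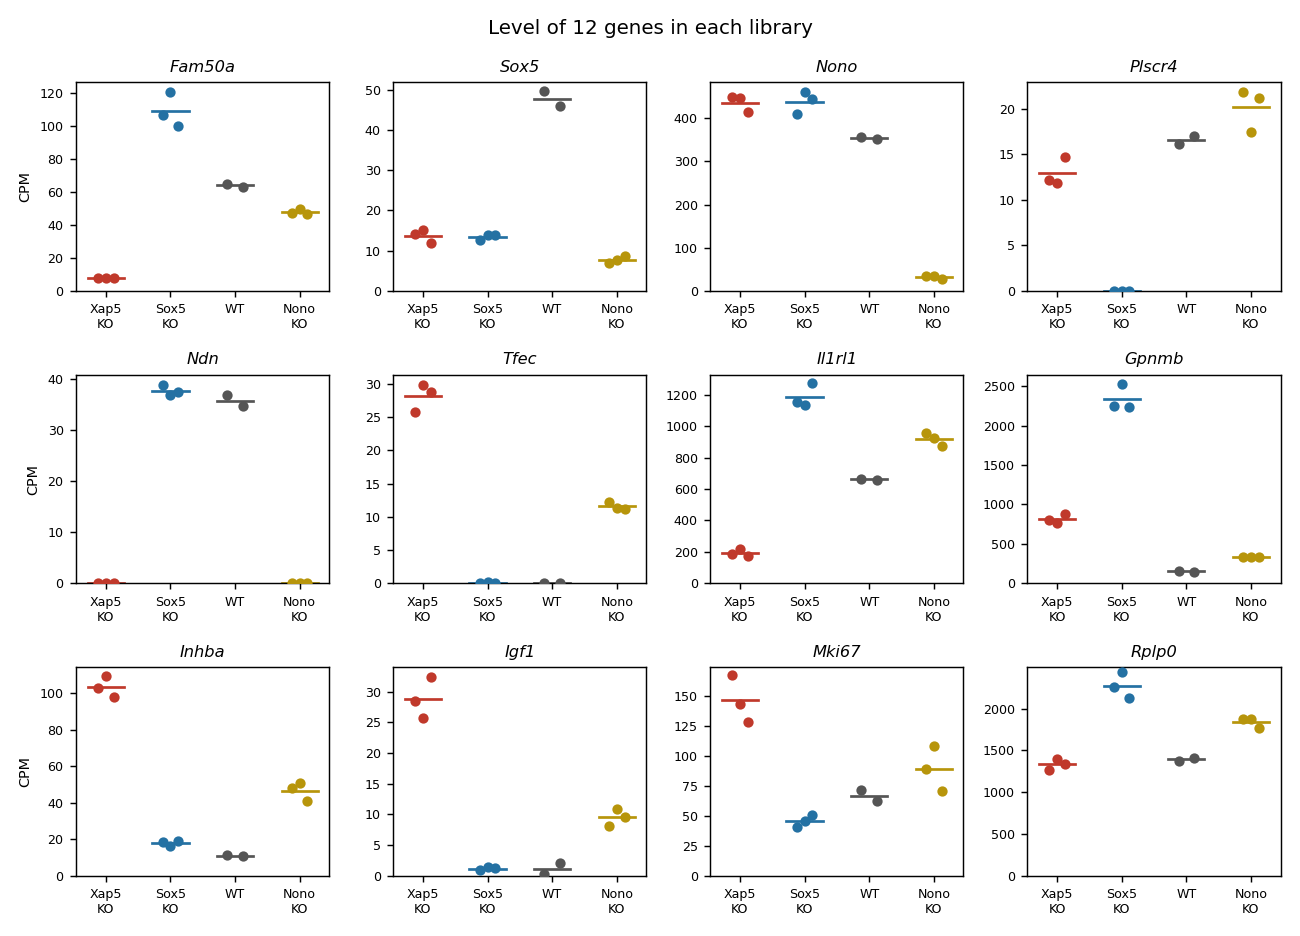
CPM (y axis) of 12 genes in each library of the 4 groups (x axis), with points for libraries and a bar for the group mean. Fam50a is low in Xap5 KO alone, Sox5 is alike in the Xap5 KO and Sox5 KO libraries, and Plscr4, Ndn and Tfec are near 0 in one of these lines.

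Some genes were at or near 0 in one line and clearly expressed in the other. By the rule of at most 3 counts in every library of one line and at least 100 in every library of the other, 14 genes were off in Sox5 KO and 15 were off in Xap5 KO. Folds of these genes are lower bounds against a floor of 3 counts per library. Among those off in Sox5 KO, Col11a1, a chain of the cartilage-type fibrillar collagen XI, was at 15.4, 17.3 and 17.8 CPM in Xap5 KO and at 0 in every Sox5 KO library, at least 174-fold higher. Zfp422, which encodes a zinc finger protein, was at 14.03, 12.1 and 15.3 CPM against 0 in each (at least 143-fold). Plscr4, a phospholipid scramblase gene, was at 12.1, 11.8 and 14.7 CPM against 0 (at least 133-fold). All 3 genes had reads in every WT and Nono KO library, and Sox5 KO was the one group at 0. WT stood at 2.26 and 1.45, 8.61 and 10.6 and 16.2 and 17 CPM in turn. The retinoic acid-binding protein gene Crabp1 (6.67, 4.55 and 6.41 CPM in Xap5 KO) and Ace, which encodes angiotensin-converting enzyme (6.72, 5.91 and 6.67 CPM), were also at 0 in all Sox5 KO libraries. Their WT levels were 25.2 and 23.04 and 39.1 and 28.8 CPM, above both knockout lines. Defb41, a beta-defensin gene, went the other way against WT: it was at 5.301, 5.57 and 5.23 CPM in Xap5 KO, 0 in Sox5 KO and 0.0744 and 0 CPM in WT.

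The genes off in Xap5 KO were led by Ndn, the imprinted necdin gene, which was at 0 in every Xap5 KO library and at 38.8, 36.9 and 37.4 CPM in Sox5 KO, at least 497-fold lower. WT resembled the Sox5 line, at 36.8 and 34.7 CPM. The heparanase gene Hpse was at 0 against 12.7, 13.3 and 12.9 CPM (at least 171-fold), and its relative Hpse2, whose product lacks heparanase activity, at 0 against 27.5, 37.5 and 29.7 CPM (at least 416-fold). Hpse2 was at 0 in the WT and Nono KO libraries too, and Sox5 KO was the only one of the 4 groups with reads. Ptpn20 and Vmn1r233 were likewise at 0 in WT and in Xap5 KO, with 10.9, 8.88 and 11.7 CPM and 5.94, 5.96 and 6.89 CPM in Sox5 KO. Cst6, the cystatin E/M protease inhibitor, was at 0, 0.0487 and 0.0515 CPM in Xap5 KO against 11.2, 11.05 and 11.5 CPM, with 8.53 and 8.49 CPM in WT. Col2a1, the type II collagen of cartilage and a target of SOX9 with SOX5, was at 0.0772, 0 and 0 CPM in Xap5 KO against 11.3, 10.3 and 11.96 CPM in Sox5 KO. Its fold was at least 148 and WT had 0.992 and 1.52 CPM, so the Sox5 KO line was above WT and Xap5 KO below it.

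Several further genes with traces of reads in the lower line differed by more than 100-fold on the fitted scale. Tfec, a transcription factor of the MiT/TFE family was at 25.7, 29.9 and 28.8 CPM in Xap5 KO against 0.0309, 0.136 and 0 CPM in Sox5 KO (log2 difference 8.95 ± 0.30) and at 0 in both WT libraries. Edil3, a secreted integrin ligand, was at 17.4, 18.99 and 21.3 CPM in Xap5 KO against 0, 0.203 and 0 CPM in Sox5 KO (log2 difference 8.15 ± 0.32), far under the 121 and 113 CPM of WT in both lines. Cdh19, a cadherin, was at 17.5, 17.01 and 23.1 CPM in Xap5 KO against 0.124, 0 and 0 CPM in Sox5 KO (log2 difference 8.698 ± 0.48). In the other direction Ecel1, an endothelin-converting enzyme-like protease, was at 0.283, 0.414 and 0 CPM in Xap5 KO against 81.5, 76.5 and 77 CPM in Sox5 KO (log2 difference -8.36 ± 0.35), Col15a1, a basement membrane collagen, at 0, 0.438 and 0 CPM in Xap5 KO against 43.9, 39.04 and 45.7 CPM in Sox5 KO (log2 difference -8.12 ± 0.62) and Shc2, an adaptor of receptor tyrosine kinases, at 0.309, 0.316 and 0.0515 CPM in Xap5 KO against 30.9, 37.2 and 31.8 CPM in Sox5 KO (log2 difference -7.17 ± 0.19). Col15a1 and Shc2 were at 40.9 and 42.9 and 66.3 and 65.4 CPM in WT, nearer to Sox5 KO than to Xap5 KO. Fitted differences of genes with so few reads in one line depend on the prior count. Their SE, derived from these differences, does not measure how closely such a fold is known.

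Ribosomal protein genes were the one list in which every tested member was called in the same direction. Ribosomal proteins build the 2 subunits of the ribosome, and their mRNAs begin with a run of pyrimidines, the TOP motif, through which mTOR signalling controls their translation. All 82 members were tested and all 82 were lower in Xap5 KO, against 30.4% lower among all tested genes, with a median log2 difference of -1.42. The summed level was 21438, 22186 and 22299 CPM in the Xap5 KO libraries and 51010.4, 56068 and 49339 CPM in the Sox5 KO libraries, so the lines did not overlap, and WT, at 23596 and 23672 CPM, was close to Xap5 KO. The small subunit had a median of -1.51 (33 genes) and the large subunit of -1.33 (49 genes). With the length and GC offset 79 of 82 stayed lower and the median was -0.94; these are short transcripts, with a median longest transcript of 1077 bases. Rplp0, a stalk protein of the large subunit, was at 1269, 1398 and 1339 CPM in Xap5 KO against 2256, 2436 and 2129 CPM in Sox5 KO (log2 difference -0.77 ± 0.06). Rps4x of the small subunit was at 836, 904 and 849 CPM in Xap5 KO against 1809, 1798 and 1665 CPM in Sox5 KO (log2 difference -1.03 ± 0.05). Rps27 was at 24.6, 8.08 and 33.95 CPM in Xap5 KO against 161, 264 and 199 CPM in Sox5 KO (log2 difference -3.23 ± 0.81) and -2.56 with the offset. It had the largest difference of the list, and its Xap5 KO libraries spread more widely than its Sox5 KO libraries in proportion to their means. Many of these genes have near-identical processed pseudogenes, and reads could have been split among the copies.

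The start of these genes carries the pyrimidine run in many cases. Starts are shown for 6 members with large differences whose RefSeq start holds CTTTC or CTTCC. They run from 20 bases before to 30 after the start, in GRCm38.p6. The members were picked after the values were seen, and not from every chromosome. Capitals mark CTTTC or CTTCC between 10 bases before and 15 after the start:
Rps27, chr3:90213619-90213668, minus strand: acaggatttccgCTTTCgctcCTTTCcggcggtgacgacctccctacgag
Rpl22l1, chr3:28805488-28805537, plus strand: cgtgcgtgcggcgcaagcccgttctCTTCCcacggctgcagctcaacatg
Rpl38, chr11:114668560-114668609, plus strand: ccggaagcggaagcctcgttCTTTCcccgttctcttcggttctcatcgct
Rps18, chr17:33955636-33955685, minus strand: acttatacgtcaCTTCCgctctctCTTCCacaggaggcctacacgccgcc
Rps24, chr14:24490658-24490707, plus strand: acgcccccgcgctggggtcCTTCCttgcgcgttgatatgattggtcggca
Rpl7a, chr2:26910787-26910836, plus strand: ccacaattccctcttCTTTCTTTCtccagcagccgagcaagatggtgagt

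In that 25-base window, CTTTC or CTTCC stood on the strand of the gene in 22 of the 61 ribosomal protein genes with a RefSeq promoter (36.1%) and in 9.73% of 10405 tested genes. On the opposite strand the shares were 13.1% and 9.84%. Among genes at least 2-fold lower in Xap5 KO the share on the strand of the gene was 12.98% (88 of 678), and among those at least 2-fold higher it was 6.58% (53 of 805). Of the 82 ribosomal protein genes 67 were themselves at least 2-fold lower. Those with a promoter were not taken out of the lower group, so its share is not separate from theirs. The motifs are short and a match is a description of the sequence only.

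Other mRNAs of the TOP class, listed after the values were seen, leaned the same way. Of 16 translation factors and related genes, 14 were lower in Xap5 KO and none higher, with a median of -0.79, and with the offset 14 were lower and 1 higher with a median of -0.65. Eef1a1, the factor that brings aminoacyl-tRNA to the ribosome, was at 7435, 7342 and 6807 CPM in Xap5 KO against 10589.6, 11081 and 10244 CPM in Sox5 KO (log2 difference -0.56 ± 0.06). Eef1g, a subunit of its exchange factor, was at 836, 833 and 736 CPM in Xap5 KO against 2091, 2102 and 1969.9 CPM in Sox5 KO (log2 difference -1.36 ± 0.06). Pabpc1, the cytoplasmic poly(A)-binding protein, and Btf3 were not called, with differences of 0.07 and 0.05.

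**Figure D3:**
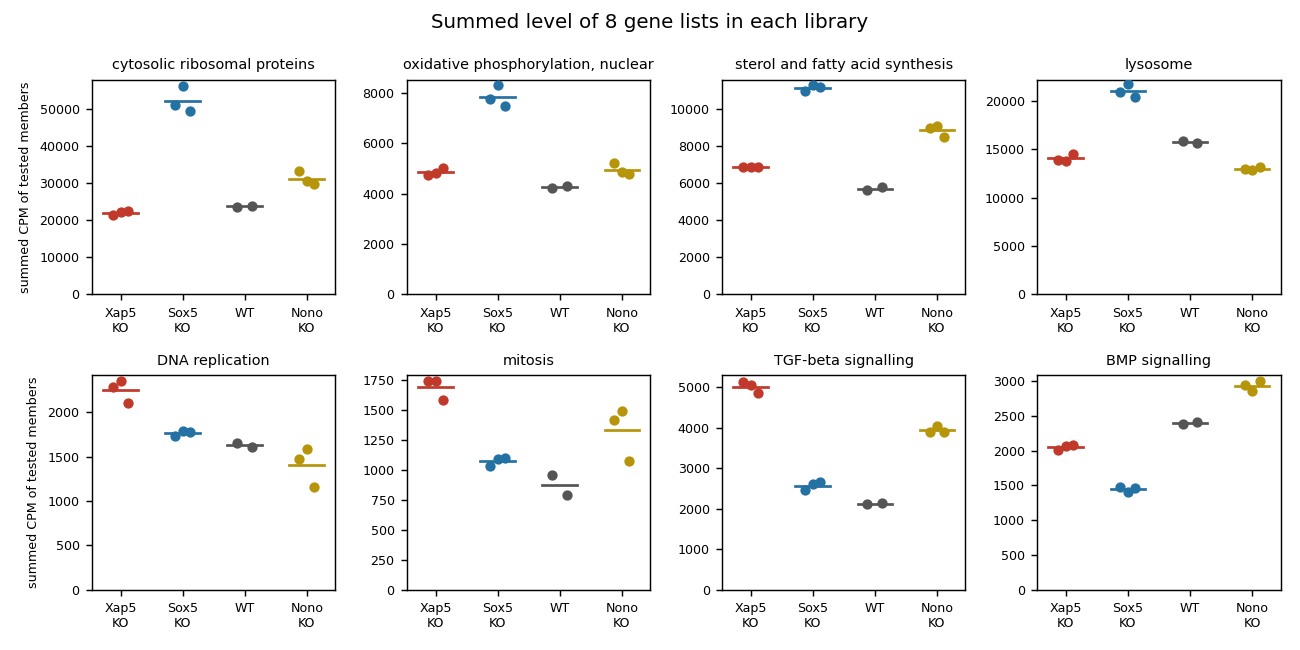
Summed CPM of the tested members of 8 gene lists (y axis) in each library of the 4 groups (x axis), with points for libraries and a bar for the group mean. Ribosomal protein, oxidative phosphorylation, sterol and lysosome genes are higher in all Sox5 KO libraries than in all Xap5 KO libraries, and DNA replication, mitosis, TGF-beta and BMP genes are lower.

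Respiratory chain genes split by the genome that encodes them. The complexes of oxidative phosphorylation are assembled from nuclear-encoded subunits and from 13 proteins made in the mitochondrion. For the nuclear-encoded subunits, 1 of 63 tested members were higher and 60 lower in Xap5 KO, with a median log2 difference of -0.73. With the offset the values were 4 higher, 41 lower and a median of -0.39. Ndufa13, a complex I subunit, was at 27.6, 27.5 and 24.5 CPM in Xap5 KO against 82.8, 99.1 and 82.4 CPM in Sox5 KO (log2 difference -1.73 ± 0.09). Cox6b1, of complex IV, was at 33.1, 36.3 and 40.9 CPM in Xap5 KO against 99.3, 128 and 108 CPM in Sox5 KO (log2 difference -1.604 ± 0.11). With the offset Cox6b1 was at -0.90. Atp5b, the catalytic beta subunit of ATP synthase, was at 654, 641 and 636 CPM in Xap5 KO against 1086, 1076 and 992 CPM in Sox5 KO (log2 difference -0.71 ± 0.05). For the mitochondrially encoded genes, 8 of 13 tested members were higher and 0 lower in Xap5 KO, with a median log2 difference of 0.42, and with the offset 13 higher, 0 lower and a median of 1.06. The complex I genes mt-Nd5 (12422, 10302 and 9326 CPM in Xap5 KO against 4055, 3845 and 4813 CPM in Sox5 KO) and mt-Nd4l (1643, 1138 and 1072 CPM in Xap5 KO against 439, 409.5 and 487 CPM in Sox5 KO) differed most, by 1.33 ± 0.11 and 1.53 ± 0.15, and mt-Nd4l by 2.46 with the offset. The complex IV gene mt-Co1 was at 29693, 25101 and 22333 CPM in Xap5 KO against 24898, 22242 and 24892 CPM in Sox5 KO (log2 difference 0.10 ± 0.09) and was not called, although with the offset it was called at 0.37. Neighbouring mitochondrial transcripts overlap, which leaves single values among them uncertain.

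Lipid synthesis genes were lower in Xap5 KO. SREBP factors switch on the enzymes of the sterol and fatty acid pathways when membranes are short of cholesterol. In this list 3 of 38 tested members were higher and 33 lower in Xap5 KO, with a median log2 difference of -0.50, and the length and GC offset left it nearly as it was (3 higher, 31 lower and a median of -0.52). Summed levels were 6907, 6899 and 6899 CPM in the Xap5 KO libraries and 11014, 11324 and 11206 CPM in the Sox5 KO libraries, against 5617 and 5784 CPM in WT. Msmo1, a sterol C4-methyl oxidase, was at 174, 175 and 165 CPM in Xap5 KO against 528, 453 and 497 CPM in Sox5 KO (log2 difference -1.52 ± 0.06). Mvd, which makes isopentenyl diphosphate, was at 28.2, 29.3 and 31.01 CPM in Xap5 KO against 70.2, 71.4 and 66.8 CPM in Sox5 KO (log2 difference -1.24 ± 0.09). Scd2, a stearoyl-CoA desaturase, was at 1232, 1277 and 1416 CPM in Xap5 KO against 2825, 3047 and 3002 CPM in Sox5 KO (log2 difference -1.18 ± 0.06). Acsl3, which activates long-chain fatty acids, was at 88.7, 90.4 and 114 CPM in Xap5 KO against 249.8, 225 and 250.2 CPM in Sox5 KO (log2 difference -1.31 ± 0.08). Exceptions included Acacb, the mitochondrial acetyl-CoA carboxylase, at 14.9, 12.3 and 14.7 CPM in Xap5 KO against 2.78, 3.15 and 2.42 CPM in Sox5 KO (log2 difference 2.32 ± 0.20), and Hmgcs1, an early enzyme of the sterol branch, at 0.23 ± 0.05. Hmgcs1 lies on chromosome 13, whose genes were higher in Xap5 KO as a whole, and once each chromosome's median was taken out it was at -0.14.

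Genes of stress and carbon metabolism leaned the same way. NRF2 drives antioxidant and detoxifying enzymes, and of its targets 2 of 32 tested members were higher and 26 lower in Xap5 KO, with a median log2 difference of -0.56 (with the offset 1 higher, 23 lower and a median of -0.36). Hmox1, heme oxygenase, was at 64.98, 63.1 and 62.9 CPM in Xap5 KO against 191, 200.3 and 178 CPM in Sox5 KO (log2 difference -1.58 ± 0.06). Gsta4, a glutathione transferase, was at 59.3, 55.5 and 59.1 CPM in Xap5 KO against 177, 174 and 164 CPM in Sox5 KO (log2 difference -1.56 ± 0.08). Its relative Gsta3 was at 3.65, 1.48 and 2.96 CPM in Xap5 KO against 40.9, 37.3 and 40.8 CPM in Sox5 KO (log2 difference -3.88 ± 0.30). Keap1, which holds NRF2 in the cytoplasm, was one of the members higher in Xap5 KO, at 0.44 ± 0.07. Ferritin, the iron store, was lower in both chains, Fth1 at 2972, 2739.8 and 2321 CPM in Xap5 KO against 4073, 4084 and 3748 CPM in Sox5 KO (log2 difference -0.57 ± 0.08) and Ftl1 at 2684, 2753 and 3015 CPM in Xap5 KO against 4879, 4941 and 4344 CPM in Sox5 KO (log2 difference -0.74 ± 0.06).

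For ATF4 targets and the unfolded protein response, 9 of 39 tested members were higher and 25 lower in Xap5 KO, with a median log2 difference of -0.40, and with the offset 9 higher, 23 lower and a median of -0.22. The ATF4 targets, which supply amino acids, had a median of -0.64 (3 higher and 15 lower of 19) and the ER chaperones and sensors one of -0.13 (6 higher and 10 lower of 20). Psat1, of serine synthesis, was at 156, 173 and 152 CPM in Xap5 KO against 424, 401 and 383 CPM in Sox5 KO (log2 difference -1.33 ± 0.06). The amino acid transporter chains Slc7a5 and Slc3a2, which work as a dimer, were at 34.3, 33.9 and 34.4 CPM in Xap5 KO against 96.5, 96.4 and 88.2 CPM in Sox5 KO (log2 difference -1.45 ± 0.07) and at 131, 135 and 133 CPM in Xap5 KO against 337, 334 and 313 CPM in Sox5 KO (log2 difference -1.304 ± 0.06). Sel1l, of ER-associated degradation, went the other way, at 206, 203 and 204 CPM in Xap5 KO against 91.3, 104 and 106 CPM in Sox5 KO (log2 difference 1.02 ± 0.06). In glycolysis and the hypoxia response 4 of 37 tested members were higher and 24 lower in Xap5 KO, with a median log2 difference of -0.64 (with the offset 3 higher, 23 lower and a median of -0.42). Pkm, pyruvate kinase, was at 1163, 1161 and 1135 CPM in Xap5 KO against 1783, 1971 and 1764 CPM in Sox5 KO (log2 difference -0.67 ± 0.06), Aldoa, aldolase A, at 604, 574 and 572 CPM in Xap5 KO against 962, 893 and 842 CPM in Sox5 KO (log2 difference -0.62 ± 0.05). The hypoxia-induced mTOR inhibitor Ddit4 was at 9.88, 7.59 and 8.81 CPM in Xap5 KO against 23.4, 31.8 and 27.5 CPM in Sox5 KO (log2 difference -1.65 ± 0.14). Hk2, the first enzyme of the pathway, was higher in Xap5 KO, at 82.3, 77.9 and 76.3 CPM in Xap5 KO against 56.5, 56.2 and 52.2 CPM in Sox5 KO (log2 difference 0.52 ± 0.07).

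Lysosomal genes were more often lower in Xap5 KO. Of this list 7 of 47 tested members were higher and 26 lower in Xap5 KO, with a median log2 difference of -0.20, unchanged in direction with the offset (8 higher, 26 lower and a median of -0.19). Among the V-ATPase subunits, the pump that acidifies the lumen, 10 of 15 were lower and 1 higher (median -0.48). Among hydrolases and membrane proteins 16 of 28 were lower and 3 higher (median -0.27), and of the 4 MiT/TFE factors that induce them 3 were higher and none lower. Gpnmb, a glycoprotein of lysosomes, was at 805, 761 and 881 CPM in Xap5 KO against 2253, 2525 and 2237 CPM in Sox5 KO (log2 difference -1.52 ± 0.06), and WT had only 161 and 149 CPM. Ctsk, a protease that degrades collagen, was at 12.7, 11.2 and 13.7 CPM in Xap5 KO against 95.2, 99.1 and 88.9 CPM in Sox5 KO (log2 difference -2.91 ± 0.09), and here WT, at 83.2 and 84.9 CPM, was close to Sox5 KO. Psap, the precursor of the saposins, was at 1560.1, 1491 and 1590.3 CPM in Xap5 KO against 2156, 2422 and 2261 CPM in Sox5 KO (log2 difference -0.56 ± 0.05). Mitf was at 55.05, 52.8 and 57.2 CPM in Xap5 KO against 45.8, 39.3 and 42.9 CPM in Sox5 KO (log2 difference 0.37 ± 0.07).

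Immune genes differed in both directions. Of interferon-stimulated genes 7 of 42 tested members were higher and 20 lower in Xap5 KO, with a median log2 difference of -0.62, and with the offset 5 higher, 18 lower and a median of -0.40. B2m, the light chain of MHC class I, was at 632, 539.6 and 501 CPM in Xap5 KO against 1203, 1048 and 1081 CPM in Sox5 KO (log2 difference -0.995 ± 0.08). The class I heavy chain H2-D1 was at 276, 279 and 306 CPM in Xap5 KO against 439, 455 and 414 CPM in Sox5 KO (log2 difference -0.60 ± 0.06). Mx1, an antiviral GTPase, was at 1.03, 0.876 and 0.824 CPM in Xap5 KO against 5.29, 6.71 and 4.72 CPM in Sox5 KO (log2 difference -2.61 ± 0.66). DESeq2 did not call Mx1 (adjusted p = 0.0903). Gbp2, a guanylate-binding protein, was at 33.6, 34 and 29.4 CPM in Xap5 KO against 13.3, 13.1 and 12.5 CPM in Sox5 KO (log2 difference 1.32 ± 0.09). Of 13 chemokines 8 were lower and 1 higher in Xap5 KO (median -1.02), and of 23 cytokines and complement genes 8 were lower and 8 higher (median -0.20). Together they counted 10 higher and 12 lower with the length and GC offset. Ccl2, which recruits monocytes, was at 425, 448 and 409.7 CPM in Xap5 KO against 1188, 978 and 1026 CPM in Sox5 KO (log2 difference -1.32 ± 0.11). Il1rl1, the receptor of interleukin 33, was at 189, 217 and 174 CPM in Xap5 KO against 1156, 1133 and 1273 CPM in Sox5 KO (log2 difference -2.62 ± 0.07), with 666 and 657 CPM in WT, so it lay below WT in Xap5 KO and above it in Sox5 KO. Lcn2, a siderophore-binding acute-phase protein, was at 53.6, 68.1 and 47.6 CPM in Xap5 KO against 3.43, 2.95 and 2.97 CPM in Sox5 KO (log2 difference 4.18 ± 0.15). The complement gene C4b was at 27.6, 21.3 and 36.8 CPM in Xap5 KO against 1.52, 1.56 and 1.79 CPM in Sox5 KO (log2 difference 4.14 ± 0.21). The decoy receptor of RANKL, Tnfrsf11b, was at 5.12, 5.65 and 7.32 CPM in Xap5 KO against 0, 0.136 and 0.128 CPM in Sox5 KO (log2 difference 6.08 ± 0.38).

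**Figure D4:**
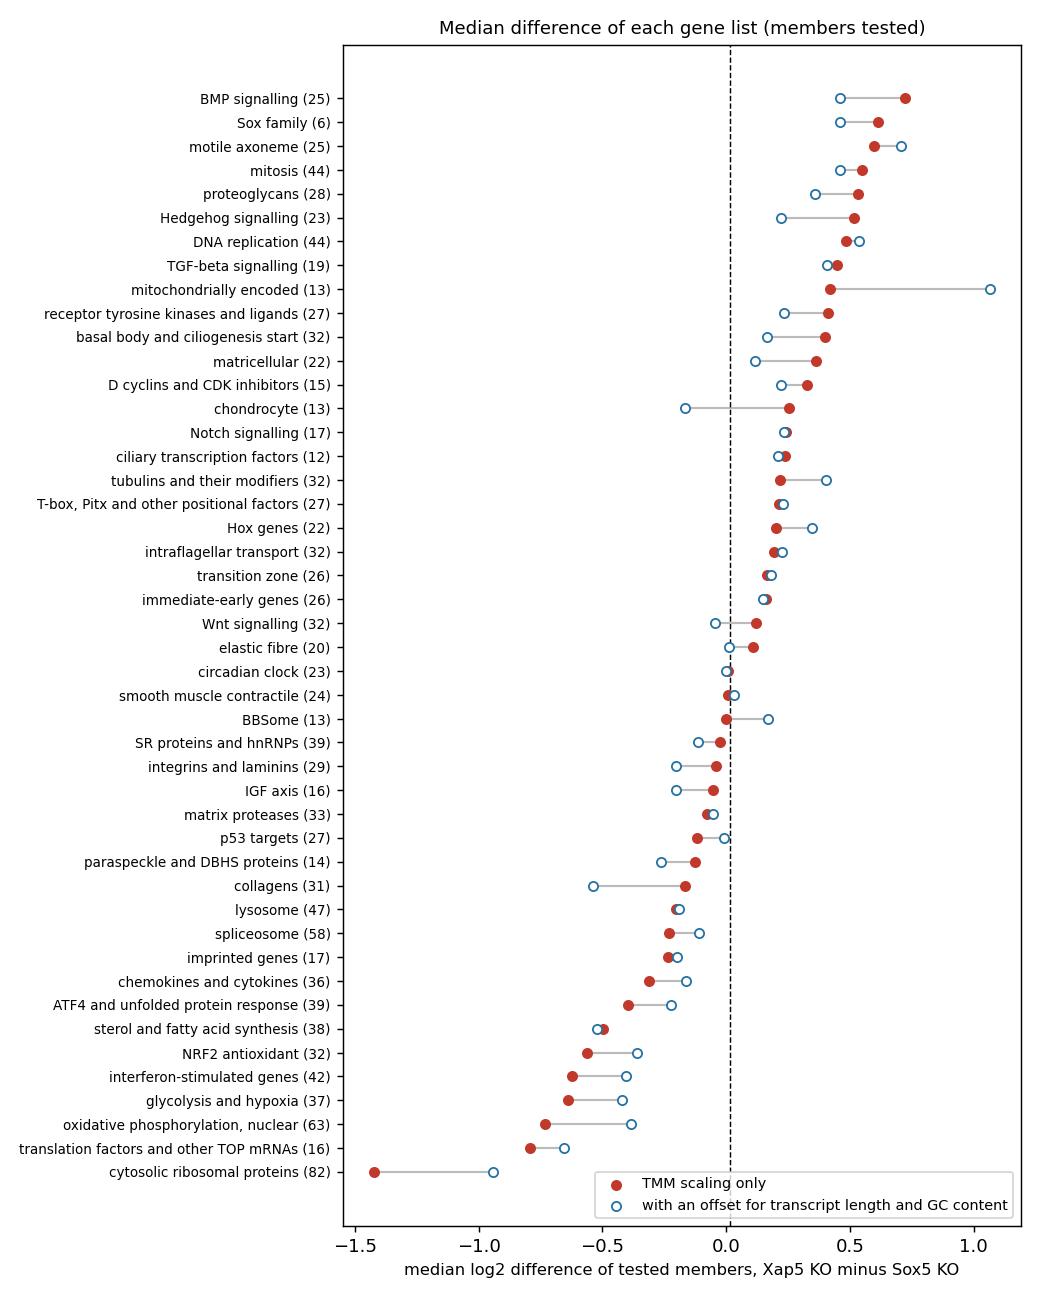
Median log2 difference of the tested members of each gene list (x axis, Xap5 KO minus Sox5 KO, number of tested members in brackets), with TMM scaling only (filled points) and with the length and GC offset (open points). The dashed line is the median of all tested genes, 0.02. Ribosomal protein genes lie lowest at -1.42 and -0.94, and mitochondrially encoded genes move most between the 2 scalings.

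Cell-cycle genes were more often higher in Xap5 KO. In DNA replication 27 of 44 tested members were higher and 6 lower in Xap5 KO, with a median log2 difference of 0.48, and in mitosis 28 of 44 tested members were higher and 2 lower in Xap5 KO, with a median log2 difference of 0.55. The counts changed little with the offset: 30 higher, 6 lower and a median of 0.54 for replication and 28 higher, 2 lower and a median of 0.46 for mitosis. Mki67, the proliferation antigen Ki-67, was at 167, 143 and 128 CPM in Xap5 KO against 41.1, 45.7 and 50.3 CPM in Sox5 KO (log2 difference 1.68 ± 0.17), with 71.8 and 62.05 CPM in WT. The kinetochore motor Cenpe was at 50.2, 54.3 and 44.4 CPM in Xap5 KO against 12.9, 13.2 and 14.8 CPM in Sox5 KO (log2 difference 1.86 ± 0.10). The kinetochore protein Cenpf was at 68.8, 66.7 and 63.1 CPM in Xap5 KO against 17.2, 19.3 and 20.4 CPM in Sox5 KO (log2 difference 1.805 ± 0.13). Mki67 and Cenpf have long transcripts, and with the offset their differences were 1.09 and 1.15. Rrm2, the S-phase subunit of ribonucleotide reductase, was at 52.4, 64.1 and 58.3 CPM in Xap5 KO against 26.3, 24.2 and 25.96 CPM in Sox5 KO (log2 difference 1.19 ± 0.17). Ccne2, cyclin E2, was at 18.9, 22.7 and 20.02 CPM in Xap5 KO against 7.17, 6.61 and 7.56 CPM in Sox5 KO (log2 difference 1.53 ± 0.24). Top2a, the topoisomerase that untangles chromosomes, was at 203, 224 and 200.5 CPM in Xap5 KO against 96.1, 105 and 108 CPM in Sox5 KO (log2 difference 1.03 ± 0.12).

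The 2 mitotic genes lower in Xap5 KO were the central kinase Cdk1, at 21.4, 24.1 and 25.97 CPM in Xap5 KO against 39.95, 44.4 and 43.1 CPM in Sox5 KO (log2 difference -0.83 ± 0.11). Ccnb2, cyclin B2, was at 6.72, 7.23 and 5.41 CPM in Xap5 KO against 13.02, 12.6 and 11.2 CPM in Sox5 KO (log2 difference -0.93 ± 0.18). The replication genes lower in Xap5 KO included the helicase subunit Mcm5, at 44.6, 38.4 and 38.05 CPM in Xap5 KO against 61.1, 68.1 and 66.6 CPM in Sox5 KO (log2 difference -0.69 ± 0.12). The origin recognition gene Orc6, was at 26.02, 21.4 and 20.1 CPM in Xap5 KO against 36.5, 35.8 and 36.9 CPM in Sox5 KO (log2 difference -0.69 ± 0.10). Both lie on chromosome 8, whose genes were lower as a whole. With each chromosome's median taken out of every library they were at -0.09 and -0.08 and not called, and 26 replication genes were higher and 1 lower. Among cyclins and their inhibitors 9 of 15 were higher and 4 lower (9 and 2 with the length and GC offset). Cdk6, a G1 kinase, was at 114, 117 and 110.0 CPM in Xap5 KO against 52.5, 45.9 and 46.2 CPM in Sox5 KO (log2 difference 1.24 ± 0.07). Its relative Cdk4 was at 325, 284 and 272 CPM in Xap5 KO against 424, 429 and 411 CPM in Sox5 KO (log2 difference -0.52 ± 0.06). With the length and GC offset Cdk6 was at 0.56. The pocket protein Rbl2, found in the quiescence-associated DREAM complex, was at 47.9, 47.1 and 47.9 CPM in Xap5 KO against 75.5, 75.7 and 76.6 CPM in Sox5 KO (log2 difference -0.67 ± 0.06). Cdkn2c, an inhibitor of CDK4 and CDK6, was at 74.7, 64.6 and 69.1 CPM in Xap5 KO against 50.8, 43.2 and 50.2 CPM in Sox5 KO (log2 difference 0.53 ± 0.08). Of the p53 targets 8 of 27 were higher and 9 lower (9 and 9 with the length and GC offset), near the 31.1% and 30.4% of all tested genes. Bax, the pore-forming death effector, was at 78.5, 87.9 and 89.7 CPM in Xap5 KO against 213, 210.1 and 195 CPM in Sox5 KO (log2 difference -1.27 ± 0.06).

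More genes of the TGF-beta and BMP lists were higher than lower in Xap5 KO. TGF-beta and BMP ligands signal through SMAD proteins and are held in check by secreted antagonists and inhibitory SMADs. Of the TGF-beta list 14 of 19 tested members were higher and 1 lower in Xap5 KO, with a median log2 difference of 0.45 (with the offset 11 higher, 3 lower and a median of 0.41). Inhba, which encodes the chain of activin A, was at 103, 109 and 97.8 CPM in Xap5 KO against 18.7, 16.3 and 18.8 CPM in Sox5 KO (log2 difference 2.52 ± 0.09), and WT had 11.2 and 10.9 CPM. The inhibitory SMAD gene Smad7 was not called, at 0.01. The other inhibitory SMAD gene, Smad6 of the BMP list, was higher in Xap5 KO (log2 difference 1.32 ± 0.13). The SMAD corepressor Skil, itself a target of the pathway, was at 67.6, 74.1 and 74.3 CPM in Xap5 KO against 15.6, 13.4 and 16.7 CPM in Sox5 KO (log2 difference 2.24 ± 0.09). Thbs1, a matricellular protein that activates latent TGF-beta, was at 3398, 3321 and 3117 CPM in Xap5 KO against 1237, 1385 and 1409 CPM in Sox5 KO (log2 difference 1.29 ± 0.06). The common mediator Smad4 was the 1 member that was lower, at 56.95, 62.1 and 53.8 CPM in Xap5 KO against 80.3, 83.97 and 84.7 CPM in Sox5 KO (log2 difference -0.53 ± 0.07).

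Of the BMP list 16 of 25 tested members were higher and 4 lower in Xap5 KO, with a median log2 difference of 0.72 (with the offset 14 higher, 6 lower and a median of 0.46). Of the genes listed as ligands only 3 could be tested. Bmp1, which is not a true ligand, was lower. Gdf5 and Gdf7 were higher on 8 to 28 counts per Xap5 KO library against at most 2 per Sox5 KO library. Among 8 antagonists 6 were higher and 1, Fstl3, was lower, at -1.10, and among 14 receptors and targets 8 were higher and 2 lower. Of the 6, Grem1 had only 14 to 20 counts per Xap5 KO library against 0 in Sox5 KO, with 129 and 132 CPM in WT. The target genes Id2 and Id4, dominant-negative partners of bHLH factors, were at 27.3, 28.04 and 24.2 CPM in Xap5 KO against 8.16, 8.81 and 7.72 CPM in Sox5 KO (log2 difference 1.69 ± 0.10) and at 19.2, 14.1 and 15.5 CPM in Xap5 KO against 4.298, 3.76 and 5.26 CPM in Sox5 KO (log2 difference 1.87 ± 0.16). Of the other tested Id genes, Id1 was higher by less (0.49 ± 0.08) and Id3 was not called (-0.20 ± 0.10). Fst, follistatin, which traps activin and BMPs, was at 2.75, 3.29 and 2.58 CPM in Xap5 KO against 0.371, 0.102 and 0.223 CPM in Sox5 KO (log2 difference 3.59 ± 0.44). The follistatin-like gene Fstl1 was at 679.7, 717 and 731 CPM in Xap5 KO against 331, 303 and 327 CPM in Sox5 KO (log2 difference 1.15 ± 0.05). Smad1, a signal transducer of BMP receptors, was at 29.9, 34.3 and 31.6 CPM in Xap5 KO against 62.03, 64.8 and 61.2 CPM in Sox5 KO (log2 difference -0.97 ± 0.08). Bmp1, which is a procollagen protease and no BMP, was at 133, 126 and 144 CPM in Xap5 KO against 248, 220.3 and 229 CPM in Sox5 KO (log2 difference -0.79 ± 0.06).

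Receptor and ligand genes of other pathways gave mixed lists with large single differences. In the IGF axis 7 of 16 tested members were higher and 6 lower in Xap5 KO, with a median log2 difference of -0.05, and the order of the counts turned with the offset (5 higher, 6 lower and a median of -0.20). Igf1 was at 28.4, 25.7 and 32.4 CPM in Xap5 KO against 0.928, 1.36 and 1.21 CPM in Sox5 KO (log2 difference 4.63 ± 0.51) and Pappa, the protease that frees IGF from its binding proteins, at 167, 158 and 187 CPM in Xap5 KO against 29.3, 30.9 and 34 CPM in Sox5 KO (log2 difference 2.44 ± 0.07). The adaptor Irs1 was at 157, 152 and 151 CPM in Xap5 KO against 42.8, 43.8 and 43.7 CPM in Sox5 KO (log2 difference 1.82 ± 0.05). Igf2 and Igfbp5, a growth factor and a binding protein, went the opposite way: Igf2 was at 47.9, 39.6 and 56.1 CPM in Xap5 KO against 201, 244 and 246 CPM in Sox5 KO (log2 difference -2.27 ± 0.30) and Igfbp5 at 6.05, 3.19 and 6.41 CPM in Xap5 KO against 42.1, 52.1 and 45.7 CPM in Sox5 KO (log2 difference -3.16 ± 0.33). WT stood at 0.248 and 2.04 CPM for Igf1, 3.42 and 0.635 for Igf2 and 0.6699 and 0.0908 for Igfbp5, below both lines for the last 2. With the offset Pappa was at 1.798.

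Among receptor tyrosine kinases and their ligands 13 of 27 were higher and 7 lower in Xap5 KO (13 and 7 with the length and GC offset). Pdgfra, a PDGF receptor that signals from the cilium in fibroblasts, was at 877, 867 and 794 CPM in Xap5 KO against 421, 443 and 433 CPM in Sox5 KO (log2 difference 0.97 ± 0.06). Its ligand Pdgfc was at 76.4, 79.9 and 88.9 CPM in Xap5 KO against 34.7, 28.6 and 32.3 CPM in Sox5 KO (log2 difference 1.36 ± 0.08). Vegfd, a lymphangiogenic factor, was at 36.98, 34.7 and 26.8 CPM in Xap5 KO against 167, 184 and 180.1 CPM in Sox5 KO (log2 difference -2.43 ± 0.10). In the Notch list 6 of 17 were higher and 4 lower (5 and 3 with the length and GC offset). The target Hes1 was at 13.9, 12.3 and 15.5 CPM in Xap5 KO against 1.05, 1.52 and 1.34 CPM in Sox5 KO (log2 difference 3.41 ± 0.18). The receptors Notch2 and Notch1 differed in opposite directions, Notch2 was at 214, 204 and 206 CPM in Xap5 KO against 64.6, 66.9 and 65.6 CPM in Sox5 KO (log2 difference 1.67 ± 0.05) and Notch1 at 5.94, 6.99 and 9.09 CPM in Xap5 KO against 18.5, 17.7 and 18.6 CPM in Sox5 KO (log2 difference -1.32 ± 0.16). With the offset Notch2 was at 1.07. Of the Wnt list 11 of 32 were higher and 8 lower, against 31.1% and 30.4% of all tested genes, and with the offset 8 and 10. The receptor Ror1 was at 32.6, 32.2 and 34.4 CPM in Xap5 KO against 9.83, 9.76 and 10.2 CPM in Sox5 KO (log2 difference 1.73 ± 0.10) and the antagonist Sfrp2 at 9.73, 16.6 and 11.6 CPM in Xap5 KO against 54.5, 56.1 and 53.5 CPM in Sox5 KO (log2 difference -2.11 ± 0.15). The immediate-early genes, which respond first to serum, had 12 of 26 higher and 7 lower (11 and 6 with the length and GC offset). Nr4a3 was at 3.14, 4.48 and 2.86 CPM in Xap5 KO against 0.402, 0.644 and 0.351 CPM in Sox5 KO (log2 difference 2.905 ± 0.37) and Fos at 2.57, 1.19 and 2.29 CPM in Xap5 KO against 0.649, 0.576 and 0.128 CPM in Sox5 KO (log2 difference 2.15 ± 0.48), both low, while Atf3 was at 3.35, 4.16 and 5.203 CPM in Xap5 KO against 11.9, 12.4 and 10.5 CPM in Sox5 KO (log2 difference -1.45 ± 0.17).

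Transcripts of matrix genes differed in both directions. Collagens give tensile strength, elastic fibres give recoil, and proteoglycans bind water and growth factors. Of collagen genes 6 of 31 tested members were higher and 14 lower in Xap5 KO, with a median log2 difference of -0.17, and with the offset 3 higher, 17 lower and a median of -0.54. Col12a1, which decorates collagen I fibrils, was at 66.7, 65.8 and 80.2 CPM in Xap5 KO against 400.0, 443 and 432 CPM in Sox5 KO (log2 difference -2.58 ± 0.07). Col5a3 was at 2.73, 1.83 and 3.32 CPM in Xap5 KO against 29.3, 25.4 and 25.7 CPM in Sox5 KO (log2 difference -3.36 ± 0.13). Col1a2 was at 3218, 3361 and 3558 CPM in Xap5 KO against 5203, 4939 and 5051 CPM in Sox5 KO (log2 difference -0.58 ± 0.07). Its partner chain Col1a1 was at 1913, 1916 and 2135 CPM in Xap5 KO against 1881, 1675 and 1748 CPM in Sox5 KO (log2 difference 0.17 ± 0.09) and was not called. A fit of the 6 libraries alone called Col1a1 at 0.17. Col8a1 was higher in Xap5 KO, at 179.6, 185 and 183 CPM in Xap5 KO against 51.3, 52.3 and 57.2 CPM in Sox5 KO (log2 difference 1.77 ± 0.07). With the offset Col12a1 was at -3.24.

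Of proteoglycan genes 15 of 28 tested members were higher and 8 lower in Xap5 KO, with a median log2 difference of 0.53 (with the offset 13 higher, 8 lower and a median of 0.36). Vcan, versican, was at 414, 418 and 385 CPM in Xap5 KO against 105, 119.9 and 122 CPM in Sox5 KO (log2 difference 1.81 ± 0.06), and at 1.098 with the offset. Prelp was at 335, 303 and 212 CPM in Xap5 KO against 35.1, 38.3 and 42.9 CPM in Sox5 KO (log2 difference 2.87 ± 0.18) and Bgn, biglycan, at 3997, 3759 and 3493 CPM in Xap5 KO against 2241, 2312 and 2297 CPM in Sox5 KO (log2 difference 0.72 ± 0.06). Dcn, decorin, was at 537, 524 and 545 CPM in Xap5 KO against 1283, 1151 and 1184 CPM in Sox5 KO (log2 difference -1.17 ± 0.06). The 2 related small proteoglycans Bgn and Dcn thus differed in opposite directions. In the elastic fibre list 9 of 20 were higher and 7 lower, and the balance turned to 7 and 8 with the length and GC offset. Lox, the enzyme that cross-links collagen and elastin, was at 5061, 4727 and 4288 CPM in Xap5 KO against 1747, 1598 and 1761 CPM in Sox5 KO (log2 difference 1.46 ± 0.07). Fbln5, which assembles elastin, was at 221, 224 and 265 CPM in Xap5 KO against 73.4, 72.2 and 66.2 CPM in Sox5 KO (log2 difference 1.75 ± 0.07). Ltbp4, a latent TGF-beta-binding protein, was at 5.56, 5.72 and 7.78 CPM in Xap5 KO against 31.9, 31.5 and 33.9 CPM in Sox5 KO (log2 difference -2.35 ± 0.12).

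Matricellular genes were more often higher (12 of 22, with 5 lower), and with the offset 11 were higher and 6 lower. Fn1, fibronectin, was at 8946, 8404 and 9331 CPM in Xap5 KO against 5758, 6404 and 6734 CPM in Sox5 KO (log2 difference 0.50 ± 0.06), but with the offset its difference was 0.03 and was not called. Thbs2 was at 7437, 7398 and 7682 CPM in Xap5 KO against 5196, 5695 and 5541 CPM in Sox5 KO (log2 difference 0.45 ± 0.06). Sparc, which binds collagen, was at 1441, 1321 and 1306 CPM in Xap5 KO against 1706, 1904 and 1773 CPM in Sox5 KO (log2 difference -0.40 ± 0.06). Of the matrix proteases and their inhibitors 10 of 33 were higher and 12 lower (9 and 13 with the length and GC offset), against 31.1% and 30.4% of all tested genes. The gelatinases Mmp2 and Mmp9 were both lower in Xap5 KO, at 1189.6, 1099.9 and 1303 CPM in Xap5 KO against 2058, 2177 and 2011 CPM in Sox5 KO (log2 difference -0.80 ± 0.07) and at 7.41, 7.06 and 6.47 CPM in Xap5 KO against 28.9, 26.1 and 30.01 CPM in Sox5 KO (log2 difference -2.02 ± 0.10). Adamts9 was at 73.4, 66.3 and 58.8 CPM in Xap5 KO against 24.1, 23.8 and 23.2 CPM in Sox5 KO (log2 difference 1.48 ± 0.08). Adamts14, a procollagen N-proteinase, was at 12.4, 11.6 and 13.6 CPM in Xap5 KO against 43.5, 45.2 and 48.3 CPM in Sox5 KO (log2 difference -1.86 ± 0.08). Of integrins and laminins 13 of 29 were higher and 12 lower, and the balance turned to 9 and 14 with the length and GC offset. Among them were the collagen receptor chains Itga1, at 6.64, 6.91 and 8.27 CPM in Xap5 KO against 0.588, 0.576 and 0.447 CPM in Sox5 KO (log2 difference 3.75 ± 0.30). Itga11, was at 7.21, 6.43 and 8.604 CPM in Xap5 KO against 43.6, 47.1 and 44.2 CPM in Sox5 KO (log2 difference -2.602 ± 0.11). The basement membrane linker Nid2 was at 2.06, 1.899 and 2.19 CPM in Xap5 KO against 50.9, 57.9 and 54.9 CPM in Sox5 KO (log2 difference -4.73 ± 0.15), with 6.203 and 7.33 CPM in WT. With the offset Itga1 was at 3.101.

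Contractile genes differed in both directions. Acta2, smooth muscle actin and a mark of myofibroblasts, was at 1849, 1605 and 1452 CPM in Xap5 KO against 2823, 3018 and 2679.8 CPM in Sox5 KO (log2 difference -0.80 ± 0.08), with 139.7 and 149 CPM in WT. Of the 24 tested contractile genes 7 were higher and 11 lower (8 and 9 with the length and GC offset). Tpm4, a tropomyosin, was at 569, 585 and 555 CPM in Xap5 KO against 1541, 1434 and 1444 CPM in Sox5 KO (log2 difference -1.37 ± 0.06). Flna, filamin A, was at 2923, 2894 and 2887 CPM in Xap5 KO against 1411, 1608 and 1497 CPM in Sox5 KO (log2 difference 0.95 ± 0.05). The 7 smooth muscle markers summed to 1479 to 1880 CPM in Xap5 KO and 2718 to 3058 CPM in Sox5 KO, nearly all of it Acta2, and Myocd, the factor that defines that cell type, was at or under 3 counts in all 6 libraries.

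Genes of the primary cilium, the antenna that the serum-free culture was meant to induce, differed by group: the lists of intraflagellar transport and of the basal body had larger shares of higher genes than the 31.1% of all tested genes, while those of the transition zone, the BBSome, the motile axoneme and the ciliary transcription factors were near or below it. Cilia are built by intraflagellar transport (IFT), in which IFT-B trains carry cargo outward on kinesin and IFT-A trains return on dynein. Of IFT genes 15 of 32 tested members were higher and 7 lower in Xap5 KO, with a median log2 difference of 0.19 (with the offset 16 higher, 5 lower and a median of 0.23). With the chromosome offset 14 higher and 9 lower were counted, with a median of 0.04. The 7 IFT-A genes had 5 higher and 1 lower, the 17 IFT-B genes 5 higher and 5 lower, and the 8 motor genes 5 higher and 1 lower. Wdr35, an IFT-A subunit, was at 54.2, 53.1 and 56.3 CPM in Xap5 KO against 19.1, 21.6 and 23.4 CPM in Sox5 KO (log2 difference 1.35 ± 0.09). Ift172, the largest IFT-B protein, was at 57.7, 60.3 and 54.9 CPM in Xap5 KO against 22.6, 26.5 and 26.4 CPM in Sox5 KO (log2 difference 1.196 ± 0.09). Kif3a, a motor subunit of kinesin-2, was at 101, 114 and 102 CPM in Xap5 KO against 55.8, 66.4 and 65.9 CPM in Sox5 KO (log2 difference 0.75 ± 0.07). Ift20, which carries cargo from the Golgi, was at 19.8, 17.8 and 21.6 CPM in Xap5 KO against 38.9, 38.5 and 34.9 CPM in Sox5 KO (log2 difference -0.92 ± 0.10). For Wdr35, Ift172 and Kif3a, WT resembled Xap5 KO (52.4 and 59.8, 54.7 and 63.2 and 90.3 and 93.5 CPM).

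The transition zone, the gate at the base of the cilium, had 9 of 26 genes higher, a share near the 31.1% of all tested genes, and 5 lower, and 9 and 2 with the length and GC offset. Its largest difference was Cep290, a linker between axoneme and membrane, at 27.7, 26.6 and 27.4 CPM in Xap5 KO against 8.01, 6.78 and 8.32 CPM in Sox5 KO (log2 difference 1.82 ± 0.11), with 31.9 and 29.3 CPM in WT. Tmem231, of the MKS complex, was at 23.3, 24.8 and 25.9 CPM in Xap5 KO against 44.99, 47.7 and 43 CPM in Sox5 KO (log2 difference -0.87 ± 0.08). Of genes of the basal body and the start of ciliogenesis 19 of 32 were higher and 7 lower, and with the offset 15 and 7. All 7 lower genes were in the group of cap removal and the ciliary vesicle (15 genes, 6 higher), and none were among the 17 genes of distal and subdistal appendages and satellites, of which 13 were higher. Nin, a subdistal appendage protein, was at 77.5, 71.1 and 79.6 CPM in Xap5 KO against 25.1, 24.7 and 29.4 CPM in Sox5 KO (log2 difference 1.53 ± 0.08). Rab8a, a GTPase of the ciliary vesicle, was at 58.5, 59.2 and 50.7 CPM in Xap5 KO against 123, 134 and 126 CPM in Sox5 KO (log2 difference -1.19 ± 0.07). The BBSome, a coat that moves receptors out of the cilium, had 2 of 13 genes higher and 2 lower (2 and 3 with the length and GC offset).

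Hedgehog signals are received in the cilium. Of this pathway 11 of 23 tested members were higher and 4 lower in Xap5 KO (10 and 6 with the length and GC offset). Cdon, a coreceptor, was at 86.3, 85.7 and 86.2 CPM in Xap5 KO against 30.3, 31.3 and 31.4 CPM in Sox5 KO (log2 difference 1.47 ± 0.06). Ptch1, the receptor and a target of the pathway, was at 24.7, 26.4 and 25.2 CPM in Xap5 KO against 13.3, 11.9 and 13.2 CPM in Sox5 KO (log2 difference 0.99 ± 0.10), and 0.38 with the offset. Prkaca, the catalytic subunit of protein kinase A that restrains Gli factors, was at 89.5, 82.8 and 77.1 CPM in Xap5 KO against 134, 143 and 142 CPM in Sox5 KO (log2 difference -0.75 ± 0.06). Disp1, which releases the ligand, was at 8.698, 7.13 and 7.03 CPM in Xap5 KO against 18.7, 19.01 and 19.2 CPM in Sox5 KO (log2 difference -1.32 ± 0.12). Tubulins and the enzymes that modify them had 15 of 32 higher and 6 lower, and with the offset 19 and 4. Tubb5 and Tuba1a were at 1756, 1721 and 1646 CPM in Xap5 KO against 1067, 1100.1 and 1003 CPM in Sox5 KO (log2 difference 0.69 ± 0.06) and at 1023, 914 and 887 CPM in Xap5 KO against 642, 687 and 629 CPM in Sox5 KO (log2 difference 0.53 ± 0.06). The glutamylase Ttll7 was at 22.9, 23.2 and 24.99 CPM in Xap5 KO against 7.08, 6.201 and 8.102 CPM in Sox5 KO (log2 difference 1.73 ± 0.10). Motile cilia are not made by fibroblasts, and only 25 of the 54 axonemal genes in the table could be tested, 8 of them higher and 3 lower (10 and 1 with the length and GC offset). Of 12 tested ciliary transcription factors 3 were higher and 2 lower, and the balance turned to 1 and 2 with the length and GC offset. One of the higher genes was Rfx3, an RFX factor. It was at 15.7, 20.9 and 17.6 CPM in Xap5 KO against 9.93, 9.25 and 10.9 CPM in Sox5 KO (log2 difference 0.85 ± 0.12), and with the offset at 0.27 and not called.

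Spliceosome genes, the machinery to which the Xap5 product belongs, divided by complex. Of the 58 tested 10 were higher and 30 lower in Xap5 KO (median -0.23), Fam50a included, and with the offset 14 were higher and 26 lower (median -0.11). In the U1, U2 and Sm group 18 of 23 were lower and none higher. Among the tri-snRNP, NTC and late factors 12 of 35 were lower and 10 higher. The shares of this second group were near the 30.4% lower and 31.1% higher of all tested genes. The 2 groups were not counted with the length and GC offset, so the split is not corrected for transcript length. Lsm6, a ring protein of the U6 snRNP, was at 14.5, 15.6 and 17.5 CPM in Xap5 KO against 39.03, 43.1 and 41.1 CPM in Sox5 KO (log2 difference -1.37 ± 0.11). The helicase Snrnp200 was at 309, 295 and 298 CPM in Xap5 KO against 199, 223 and 199 CPM in Sox5 KO (log2 difference 0.54 ± 0.05). SR proteins and hnRNPs had 11 of 39 higher and 15 lower (11 and 20 with the length and GC offset), none of them 2-fold. Srsf3 was at 153, 176 and 195 CPM in Xap5 KO against 245, 236 and 246 CPM in Sox5 KO (log2 difference -0.48 ± 0.07) and Ptbp3 at 154, 171 and 178 CPM in Xap5 KO against 87.8, 76.2 and 89.2 CPM in Sox5 KO (log2 difference 0.99 ± 0.07). Of 14 paraspeckle genes 3 were higher and 7 lower (3 and 6 with the length and GC offset). Nudt21 and Cpsf6, which together choose poly(A) sites, were at 43.2, 43.01 and 49.1 CPM in Xap5 KO against 102, 96 and 102 CPM in Sox5 KO (log2 difference -1.15 ± 0.07) and at 89.1, 89.1 and 90.1 CPM in Xap5 KO against 118, 111 and 120.4 CPM in Sox5 KO (log2 difference -0.38 ± 0.06).

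Of the 6 tested Sox factors 5 were called higher in Xap5 KO and Sox5 was not called. Of the 5, Sox6 and Sox10 were at the floor in Sox5 KO and had only 12 to 48 counts per library in Xap5 KO. Sox13, too low to be tested, had 0 counts in each Xap5 KO library and 4, 7 and 12 in the Sox5 KO libraries. Sox9, the main regulator of cartilage, was at 153, 136 and 141 CPM in Xap5 KO against 107, 95.5 and 116 CPM in Sox5 KO (log2 difference 0.43 ± 0.07). Sox4 was at 335, 353 and 357 CPM in Xap5 KO against 203, 204 and 236 CPM in Sox5 KO (log2 difference 0.70 ± 0.07). WT exceeded both lines for these 2 genes, at 339.6 and 342 and 490.0 and 511 CPM. The cartilage list itself was even, with 3 of 13 higher and 3 lower (3 and 4 with the length and GC offset). Counts were low in part of this list, and 6 of the 13 were at the floor in a line. Among positional factors 14 of 27 were higher and 8 lower (13 and 9 with the length and GC offset). Foxc1 was at 43.4, 39.3 and 38.9 CPM in Xap5 KO against 17.3, 11.7 and 13.2 CPM in Sox5 KO (log2 difference 1.53 ± 0.12), Shox2 at 77.05, 79.7 and 71.7 CPM in Xap5 KO against 28.9, 25.96 and 28.5 CPM in Sox5 KO (log2 difference 1.45 ± 0.07) and Tbx3 at 53.6, 50.6 and 54.02 CPM in Xap5 KO against 18.1, 18.5 and 22.9 CPM in Sox5 KO (log2 difference 1.41 ± 0.09). Of 22 Hox genes, which record position along the body axis, 7 were higher and 8 lower (9 and 8 with the length and GC offset). They differed by cluster. Of Hoxa genes 5 of 8 were higher and none lower, and of Hoxb genes 3 of 4 were lower and none higher. Counts were low in part of the list, and 6 of the 22 were at the floor in a line. Among the lower Hoxb genes, Hoxb3 and Hoxb6 had 0 to 10 counts per Sox5 KO library and 0 in Xap5 KO. Hoxa3 was at 27.97, 22.5 and 19.7 CPM in Xap5 KO against 13.6, 9.86 and 13.7 CPM in Sox5 KO (log2 difference 0.91 ± 0.14) and Hoxc6 at 6.28, 6.01 and 4.95 CPM in Xap5 KO against 17.3, 15.5 and 17.2 CPM in Sox5 KO (log2 difference -1.54 ± 0.14). In the circadian list 4 of 23 were higher and 6 lower (4 and 7 with the length and GC offset), but with the chromosome offset 8 higher and 4 lower, so the balance turned with the scaling. Npas2, a partner of BMAL1, was at 0.103, 0 and 0.309 CPM in Xap5 KO against 6.59, 7.62 and 7.88 CPM in Sox5 KO (log2 difference -5.73 ± 0.47), its paralog Clock at 86, 85.6 and 82.8 CPM in Xap5 KO against 39.95, 40.9 and 45.04 CPM in Sox5 KO (log2 difference 1.02 ± 0.07). The output factor Hlf was at 9.86, 9.69 and 11.1 CPM in Xap5 KO against 44.6, 40.2 and 42.96 CPM in Sox5 KO (log2 difference -2.06 ± 0.12). With the offset Clock was at 0.41.

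Differences also clustered by chromosome. On chromosome 8, 457 of 715 tested genes (63.9%) were lower in Xap5 KO and 52 (7.27%) higher, with a median of -0.59. On chromosome 12 the reverse held, with 315 of 447 (70.5%) higher, 21 (4.70%) lower and a median of 0.63. Chromosome 13 had a median of 0.40, chromosome 14 one of -0.36 and chromosome 19 one of -0.31. The 3 libraries of a line agreed closely: on chromosome 8 the Xap5 KO libraries were at -0.31 to -0.29 relative to the mean of the 6, and the Sox5 KO libraries at 0.30 to 0.32. WT, at 0.05 and 0.08, lay between them on chromosome 8. On chromosome 12 WT, at 0.43 and 0.45, was above both. With each chromosome's median taken out of each library (the chromosome offset), 3860 genes were higher and 3840 lower, and 6436 of the 8209 calls kept their sign and their call. Of the genes named here, Hmox1, Lsm6, Mcm5, Mmp2, Msmo1, Mvd, Ndufa13, Nudt21, Orc6, Prkaca, Rab8a, Rbl2, Slc7a5, Smad1, Tmem231 and Tpm4 lie on chromosome 8. Fbln5, Fos, Id2, Nin, Rrm2, Sel1l and Wdr35 lie on chromosome 12. With the chromosome offset these differences came closer to 0 by the median of their chromosome, and Mcm5, Orc6, Prkaca and Rbl2 were no longer called. Lists whose counts moved by 1.5 times or more with this offset were the transition zone (8 higher and 2 lower), the basal body (18 higher and 4 lower), the BBSome (3 higher and 2 lower), receptor tyrosine kinases (14 higher and 4 lower), immediate-early genes (10 higher and 3 lower), motile axoneme (8 higher and 1 lower), ciliary transcription factors (4 higher and 1 lower), collagens (9 higher and 13 lower), BMP (15 higher and 6 lower), TGF-beta (12 higher and 2 lower), sterol and fatty acid synthesis (1 higher and 32 lower) and, as given above, the circadian clock and DNA replication. The lysosome median went from -0.20 to -0.42. What these medians came from was not tested.

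**Figure D5:**
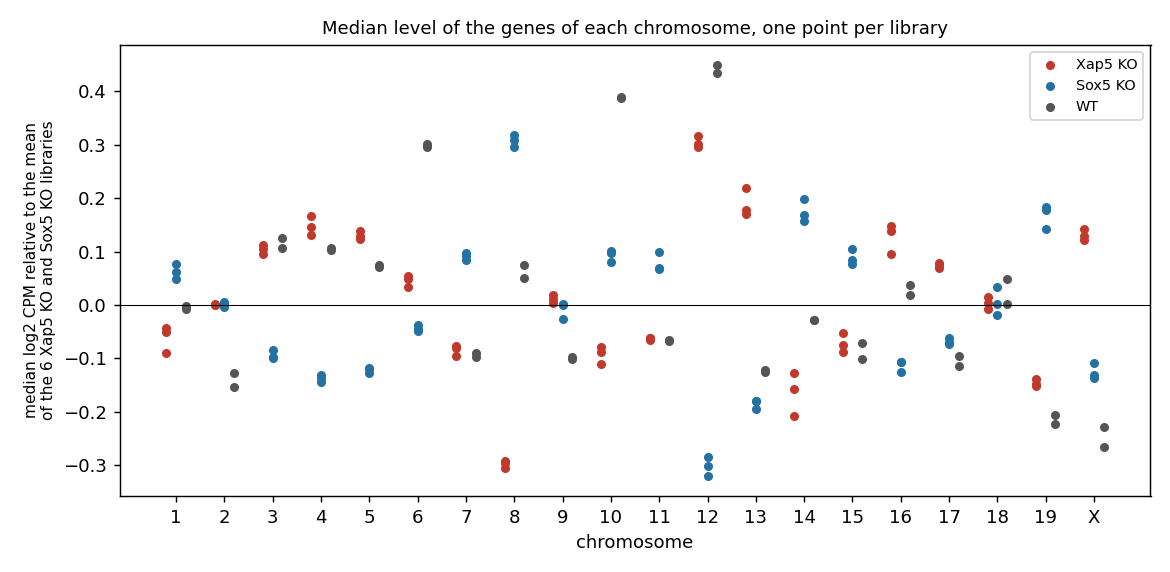
Median log2 CPM of the tested genes of each chromosome (x axis) relative to the mean of the 6 Xap5 KO and Sox5 KO libraries (y axis), with 1 point per library of Xap5 KO, Sox5 KO and WT. The 3 libraries of each line lie together, and chromosomes 8 and 12 show the widest gaps between the lines, in opposite directions.

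Promoter sequences were searched for 3 motifs, on both strands and from 250 bases before to 50 after the RefSeq start. AACAAT, the core bound by SOX factors, was in 5.77% of the 10405 tested genes with a promoter, in 6.46% of those called higher by 2-fold or more in Xap5 KO and in 7.52% of those called lower by as much. GTTGCCA, one arm of the X-box of RFX factors, was in 3.99%, 4.10% and 5.75%, and TGACTCA, the AP-1 site, in 3.54%, 3.98% and 5.01%. Among all called genes, whatever their fold, the shares were 5.64% of the higher and 5.35% of the lower genes for AACAAT, 3.499% and 4.12% for GTTGCCA, and 2.96% and 3.83% for TGACTCA, so the 2-fold shares do not extend to smaller differences. The 3 motifs do not contain one another. Of the 20 on and off genes with the highest counts, 16 had a RefSeq promoter and 1 held the SOX core, beside 5.77% of all tested genes. Col11a1, Zfp422, Crabp1, Ace and Defb41, at 0 in all Sox5 KO libraries, held none. The 1 gene was Plscr4, also at 0 in those libraries. Its promoter is shown as the 1 match, in GRCm38.p6, from 250 bases before to 30 after the start, with the reverse complement of AACAAT in capitals:
Plscr4, chr9:92457128-92457407, plus strand: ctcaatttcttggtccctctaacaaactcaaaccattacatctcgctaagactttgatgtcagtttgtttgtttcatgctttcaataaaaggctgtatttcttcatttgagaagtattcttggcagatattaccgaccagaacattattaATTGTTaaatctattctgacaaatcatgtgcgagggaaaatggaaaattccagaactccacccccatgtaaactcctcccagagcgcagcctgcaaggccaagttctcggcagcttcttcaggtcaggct
A match of these letters is a description of the sequence and not a binding site.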

How the data were processed

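RNA of 11 NIH/3T3 libraries was measured. The authors' deposited table holds estimated counts per gene, rounded to whole numbers. HISAT2 2.1.0, StringTie 1.3.3b and DESeq2 1.12.4 are named, with no role, in the submitters' processing notes, as is the build GRCm39. Depth is given in the report, and tested genes had a median of 971.5 counts, with a biological coefficient of variation of 10.6%.

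All 11 libraries were fitted with edgeR 4.0.16 (R 4.3.3): TMM scaling, genes kept at a minimum count of 10 and minimum total of 15, a quasi-likelihood fit with 1 mean per genotype, and the contrast Xap5 KO minus Sox5 KO. P-values were adjusted by Benjamini-Hochberg over all 13332 genes and called under 0.05. The fit was also run on simulated data with few changed genes, balanced up and down, and no trend with length or chromosome. That setting is unlike these data, so it cannot show that the scaling or the calls hold here. CPM used TMM library sizes, and medians per library used log2(CPM + 0.1). Genes named were the targeted genes, those with the largest log2 or CPM differences, up to 3 called members per direction and the 2 highest of each list, and 10 on and off genes per direction. Which of these the text prints was chosen after their values were seen. So were list members outside this rule: Smad6, Smad7, Id1, Id3, Gdf5, Gdf7, Grem1, Sox6, Sox10, Sox13, Hoxb3, Hoxb6, Myocd, Btf3 and Pabpc1. Exon overlap was checked only for genes named by the rule. The members and lists were chosen with earlier results of these data known. Transcript length, GC content and exon overlap came from a GENCODE M21 annotation of GRCm38 and promoters from RefSeq (GRCm38.p6), matched by symbol or ID, with no coordinates carried between builds. Alternatives were DESeq2 1.42.0, limma-voom (limma 3.58.1), other scalings and filters, left-out libraries, a replicate block and offsets by length, GC content and chromosome.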

Additional observations from a re-analysis of the deposited data

How the results depend on the processing

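The called counts of 4151 higher and 4058 lower genes stayed within 1.5 times under every alternative run: 4088 and 4119 with DESeq2, 4093 and 4120 with DESeq2-type size factors, 4588 and 3591 with library totals, 4094 and 4110 with limma-voom, 4074 and 4013 with no filter, 4142 and 4023 with the 6 libraries alone. Leaving out 1 library gave 3849 to 4004 higher and 3746 to 3933 lower genes. At least 2-fold apart were 1193 genes (614 higher, 579 lower) with a filter at a mean of 5 CPM, which tests fewer genes. The on and off genes of Sox5 KO numbered 9 with a floor of 1 count and 27 with a floor of 10, and 14 to 17 with 1 library left out. Sox5 was at -0.39 with both the length offset (adjusted p = 0.00517) and the length and GC offset (0.00544), and Nono at -0.24 with the chromosome offset (0.00343). Hmgcs1 turned to -0.14 with the chromosome offset. The cause was not tested.

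Replicate numbers share only a number: the deviations of same-numbered Xap5 KO and Sox5 KO libraries correlated at 0.006, 0.003 and 0.008. With the replicate block 4098 genes were higher and 4038 lower, 1012 and 920 of them at least 2-fold, Fam50a was at -3.81, Sox5 at 0.03 and Nono at -0.01. Of the genes named, Col1a1 was called with the block, at 0.17.

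Groups of 3 and the unstated origin of replicates limit every p-value here.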
